A study of Mus musculus with 15 samples.

Results

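The Hox genes of mouse embryonic stem cells (mESCs) were followed through loss of either cohesin STAG subunit. Members were all genes whose symbol is Hox, a cluster letter from a to d and a number, and 39 of the 23412 genes in the deposited counts met that rule. There were 11 in the Hoxa cluster, 10 in Hoxb, 9 in Hoxc and 9 in Hoxd. STAG1 and STAG2 are the alternative subunits that complete the cohesin ring, which holds sister chromatids together and extrudes chromatin loops.

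Polyadenylated RNA was sequenced from v6.5 mESCs, a male mouse line grown on gelatin, in 5 conditions with 3 replicates each. Wild-type siGLO, Stag1-/- siGLO and Stag2-/- siGLO cells received the non-targeting control siRNA siGLO, whereas wild-type siStag1 and Stag2-/- siStag1 cells received an siRNA pool against Stag1. Each siRNA was given at 50 nM and the cells were collected 48 h later. Both knockouts carry homozygous deletions made with CRISPR/Cas9, and each was represented by 1 clone, so the effect of the clone and that of the knockout cannot be told apart. The study's supplement calls the wild-type and knockout RNA-seq replicates biological. The labels do not say whether replicates came from separate cultures, so p-values measure the spread between these libraries, which may be technical.

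Hox genes encode homeodomain transcription factors that give cells their position along the head-to-tail axis of the embryo. Each cluster is switched on in order, from the low paralog numbers, which act in the hindbrain and pharyngeal arches, to the high numbers, which act in the trunk, limbs and tail. In undifferentiated mESCs the clusters are largely silent and carry the repressive histone mark of Polycomb together with the active promoter mark, a state known as bivalent. HOX proteins bind DNA together with the PBX and MEIS homeodomain cofactors.

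On mm10 the Hoxa cluster spans 105 kb of chromosome 6, Hoxb 174 kb of chromosome 11 (chr11:96194316-96368256), Hoxc 116 kb of chromosome 15 (chr15:102921103-103036852) and Hoxd 97 kb of chromosome 2 (chr2:74668310-74765142). For description the members were split by paralog number into anterior genes (1 to 3, 8 genes), central genes (4 to 8, 15 genes) and posterior genes (9 to 13, 16 genes).

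Libraries held between 14982560 and 19070126 counts on genes (median 17700059). A floor of 3 counts per library equals 0.157 to 0.200 CPM, counts scaled to library size. Wild-type siGLO cells had 2320, 2330 and 2320 normalized counts of Stag2 and Stag2-/- siGLO cells 662, 738 and 673, and siStag1 lowered Stag1 by 2.28 on the log2 scale in wild-type cells (SE 0.14, adjusted p = 2.58e-07 from edgeR). Stag1 in the libraries labelled Stag1-/- stood at 1820, 2360 and 1870 against 2280, 2130 and 2010 in wild-type siGLO. The Stag1 edit removes a short stretch of 1 exon, so counts over the whole gene lie mostly outside it and do not check that label. The deletion keeps the reading frame, and the study characterised this clone by its lack of STAG1 protein, which was not analysed here. Of 10 embryonic stem cell markers none was at 0 in any condition, and Pou5f1, the core pluripotency factor, ranged over 13100 to 23900 normalized counts in all 15 libraries.

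Hox transcripts were scarce in every condition. The 39 members together took 178 to 700 counts per library. Of these members, 16 had enough counts to be tested (6 in Hoxa, 6 in Hoxb, 2 in Hoxc and 2 in Hoxd) and 23 did not, with 2 to 96 counts each over all 15 libraries. A gene was tested when at least 3 libraries exceeded about 10 counts (0.565 CPM). By position 7 of 8 anterior, 4 of 15 central and 5 of 16 posterior members were tested.

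In wild-type siGLO cells Hoxc13 stood at 20.2 normalized counts per kb of exon and Hoxd13 at 12.5, whereas the highest in Hoxb was Hoxb9 at 6.29. Hoxc13 acts in hair and nail and Hoxd13 in the digits and genitalia. Among the tested members, Hoxb1, Hoxb2, Hoxa2 and Hoxa3 were lowest, at 0.134, 0.364, 0.372 and 0.482 normalized counts per kb of exon. Summed over members, normalized counts in wild-type siGLO were 241, 212 and 306, of which 58.0% came from posterior and 23.6% from anterior genes.

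Pooled over the clusters, the balance between anterior and posterior members differed in cells lacking STAG2. Anterior members summed to 52.2, 47.7 and 79.2 normalized counts in wild-type siGLO. They summed to 115, 334 and 343 in Stag2-/- siGLO and to 197, 245 and 414 in Stag2-/- siStag1, above every library of the other 3 conditions. Hoxc has no anterior member, and those of Hoxd did not add to this, with mean sums of 11.4, 8.87 and 11.4 in the same order of conditions. Central members were also above every library of the other 3 conditions. They summed to 46.7, 43.6 and 49.3 in wild-type siGLO, 73.9, 109 and 143 in Stag2-/- siGLO and 119, 104 and 146 in Stag2-/- siStag1. Posterior members summed to 147 ± 28.8 in wild-type siGLO and 123 ± 10.6 in Stag2-/- siGLO (SD, n = 3), with overlapping ranges of 121 to 178 and 117 to 135. In Stag2-/- siStag1 they summed to 254, 148 and 146, so posterior genes held more of the Hox counts than anterior ones in replicate 1 (44.6% against 34.5%) and less in replicates 2 and 3. In Stag2-/- siGLO, replicate 1 was likewise the library where posterior genes held slightly more than anterior ones (38.3% against 37.6%). Anterior genes held 53.2% of Hox counts in Stag2-/- siGLO and 48.1% in Stag2-/- siStag1, against 25.3% in Stag1-/- siGLO and 24.4% in wild-type siStag1. No test was run on these sums.

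**Figure D1:**
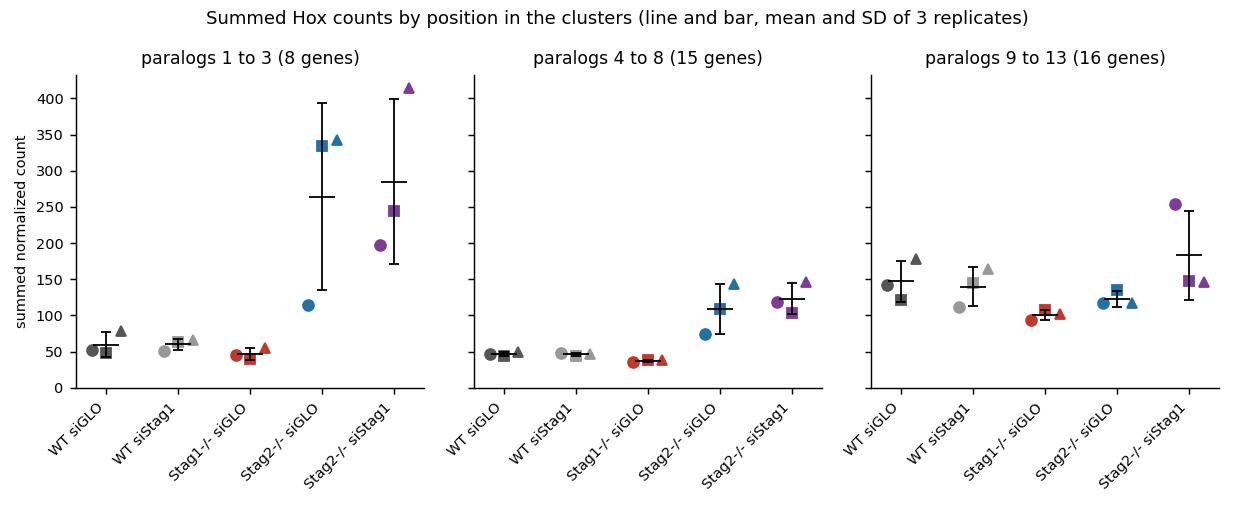
Summed normalized counts (y axis) of anterior, central and posterior Hox genes in each library of the 5 conditions (x axis), with symbols for replicates 1 to 3 and a line and bar for the mean and SD. Anterior sums lie at 115 to 414 in the 6 Stag2-/- libraries and at 39.8 to 79.2 in the other 9. Central sums lie at 73.9 to 146 and at 36.3 to 49.3.

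Whether loss of STAG2 alone changed Hox expression was asked by comparing Stag2-/- siGLO with wild-type siGLO. Hoxa2, Hoxa3, Hoxa5, Hoxa7, Hoxb1, Hoxb2 and Hoxb3 rose and Hoxc13 fell, so 8 of the 16 members tested passed an adjusted p under 0.1 in edgeR, where 28.3% of all genes tested did, 13.9% upward and 14.4% downward. All 5 anterior genes called were neighbours in Hoxa or Hoxb, and the only tested Hoxd anterior gene, Hoxd1, had a log2 fold change of -0.56 (SE 0.47, edgeR adjusted p = 0.425). The 7 members that rose, and Hoxb4, had passed the filter on low counts only through the Stag2-/- libraries, so being tested already required them to be high there. With no filter all 39 were tested and 8 rose, the same 7 and Hoxb6, and 0 fell, where 9.87% of all genes rose and 9.78% fell. In RNA from whole cultures, a few cells with much Hox RNA and many cells with little cannot be told apart.

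The hindbrain genes of Hoxb went from near silence to clearly detectable counts. Hoxb1 (chr11:96365752-96368256), which specifies a single hindbrain segment, stood at normalized counts of 0.933, 0 and 0 in wild-type siGLO and 10.6, 39.8 and 15.8 in Stag2-/- siGLO. The groups did not overlap, and 62 counts against 1 gave a ratio of 67.8 with a 95% exact counting interval of 11.7 to 2720 (edgeR adjusted p = 0.00133). Hoxb2 (chr11:96350525-96354012), a direct target of HOXB1 in the hindbrain, stood at 1.87, 0 and 1.93 against 11.6, 67.7 and 65.3. It was higher in all 3 knockout libraries, with a log2 fold change of 5.09 (SE 0.97, edgeR adjusted p = 0.00184). Hoxb3 (chr11:96323326-96347930), active in the hindbrain and pharyngeal arches, stood at 4.67, 0 and 5.80 against 8.45, 60.2 and 114. Its replicate 1 lay only just above wild type while replicates 2 and 3 lay far above, and its log2 fold change was 4.06 (SE 0.82, edgeR adjusted p = 0.00278).

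In Hoxa the same end of the cluster rose. Hoxa2 (chr6:52162417-52164831), the selector gene of the second pharyngeal arch, stood at 0, 1.01 and 0.966 in wild-type siGLO and 7.39, 26.9 and 43.2 in Stag2-/- siGLO. All knockout libraries were higher, and 73 counts against 2 gave a ratio of 39.9 with an exact counting interval of 10.7 to 336 (edgeR adjusted p = 0.0144). Hoxa3 (chr6:52169062-52213336), needed for the thymus and parathyroid, stood at 2.80, 2.03 and 3.86 against 17.9, 39.8 and 50.6. It had the smallest adjusted p of the members in this comparison, 0.000596 from edgeR, with a log2 fold change of 3.58 (SE 0.59).

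Of the central genes, Hoxa5 (chr6:52201754-52204587), which acts in the lung and the neck skeleton, stood at 1.87, 4.06 and 3.86 against 7.39, 26.9 and 31.6. Hoxa7 (chr6:52214491-52221854), a thoracic gene, stood at 9.33, 4.06 and 7.73 against 13.7, 24.7 and 31.6. Both rose without overlap, by log2 fold changes of 2.71 (SE 0.76, edgeR adjusted p = 0.0192) and 1.70 (SE 0.46, edgeR adjusted p = 0.0159). Hoxb4, a gene of the cervical vertebrae and of blood progenitors, stood at 6.53, 6.09 and 7.73 against 13.7, 9.68 and 22.1. Its groups did not overlap, but the log2 fold change of 1.15 (SE 0.54) did not pass the threshold (edgeR adjusted p = 0.142).

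The one member called lower was Hoxc13 (chr15:102921103-102928814), from 44.8, 46.7 and 58.0 to 28.5, 34.4 and 29.5. The change of -0.69 on the log2 scale (SE 0.25, edgeR adjusted p = 0.0617) was lost in the fit with no filter, in the fit on only the libraries compared and in 4 of the 6 fits that left out a library. Its edgeR adjusted p was 0.111 and 0.199 without replicate 2 or 3 of wild-type siGLO, and 0.136 without either replicate 1 or replicate 3 of Stag2-/- siGLO. Hoxd13 (chr2:74668310-74671599) stood at 31.7, 29.4 and 31.9 against 35.9, 29.0 and 32.7. Its log2 fold change was 0.07 with an interval (2 SE to either side) of -0.62 to 0.76. Hoxb9 was lower without overlap, at 14.9, 15.2 and 18.4 against 5.28, 7.53 and 9.48, but was not called. Its log2 fold change was -1.11 (SE 0.56, edgeR adjusted p = 0.174). Of the members with too few counts, Hoxb6 had 0 counts in all 9 libraries outside Stag2-/- and 5, 4 and 0 in Stag2-/- siGLO, at least 3.28-fold higher than the 3 counts allowed by wild-type siGLO as a group.

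Replicate 1 of Stag2-/- siGLO was the lowest of its 3 libraries for each of the 7 members that rose. With replicate 1 of every condition left out, 7 members again rose and 1 fell. The 7 calls were kept in each of the 6 fits that left out 1 library, but the size of some changes rested on single libraries. Without replicate 3 of Stag2-/- siGLO the log2 fold change of Hoxb3 was 3.23 and that of Hoxa2 4.48 (5.07 with all libraries). That of Hoxb1 was 5.63 with all libraries, 4.90 without replicate 2 of Stag2-/- siGLO and 7.46 without replicate 1 of wild-type siGLO, which held the only wild-type count.

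The reading of some members is limited by annotated genes that overlap them. Hoxb3 shares 52.9% of its exon bases with other annotated genes, Hoxb2 27.3%, Hoxa3 27.1%, Hoxa7 20.4% and Hoxa2 15%. All 267 shared bases of Hoxa2 and 482 of the 1631 of Hoxa3 lie on the same strand as their partner, and the others of these members lie on the opposite strand. The strand setting of the counting is not given in the sources used here, so for Hoxb2 and Hoxb3, which share these bases with the antisense gene Hoxb3os, reads of both partners cannot be told apart. Hoxb1, Hoxa5, Hoxa10, Hoxd1 and Hoxc13 share none.

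**Figure D2:**
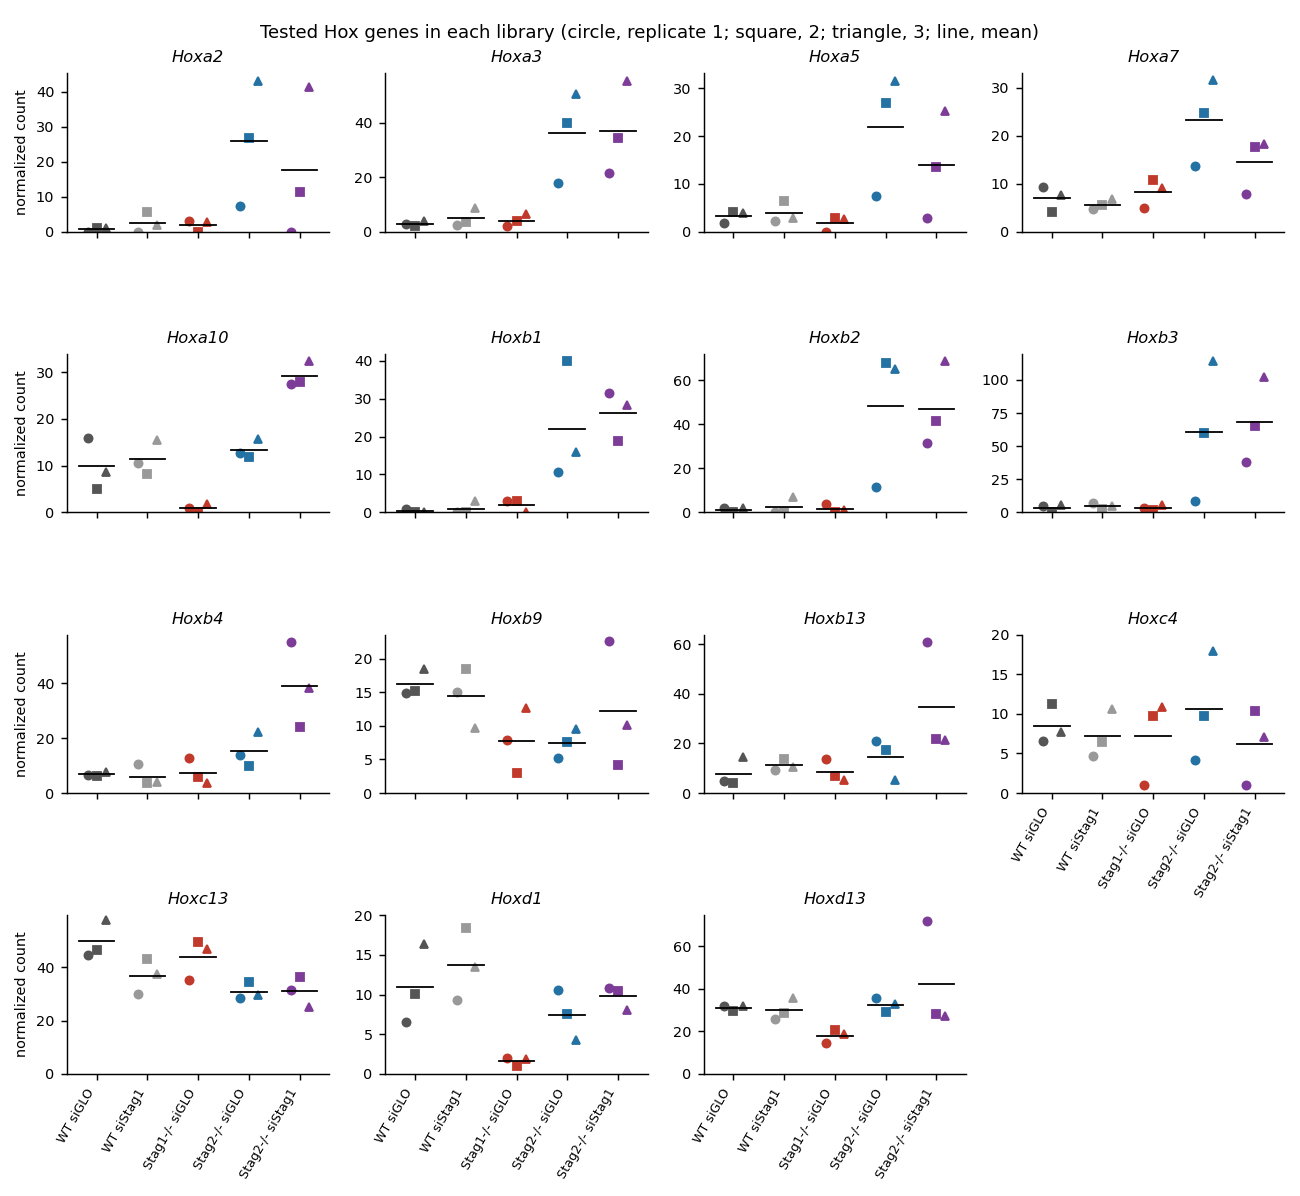
Normalized counts (y axis, from 0) of 15 tested Hox genes in every library, by condition (x axis), with symbols for replicates 1 to 3 and a line for the mean. Hoxb1, Hoxb2 and Hoxa3 lie at 8.69 or below in the 9 libraries outside Stag2-/- and between 10.6 and 68.6 in the Stag2-/- libraries, whereas Hoxa10 and Hoxd1 are lowest in Stag1-/-.

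Of the 7 members that rose in Stag2-/- siGLO, 5 had a window in the RefSeq table used here (Hoxa2, Hoxa3, Hoxa5, Hoxa7 and Hoxb1). Those of Hoxb1 and Hoxa2, which hold a PBX-HOX site, and of Hoxa5, which does not, are shown as the 250 bases before the start given by RefSeq on GRCm38.p6. A match to TGATNNAT on either strand, the site that PBX and HOX proteins bind together, is in capitals. The windows are chr11:96365508-96365757 on the + strand for Hoxb1, chr6:52164832-52165081 on the - strand for Hoxa2 and chr6:52204588-52204837 on the - strand for Hoxa5.
Hoxb1: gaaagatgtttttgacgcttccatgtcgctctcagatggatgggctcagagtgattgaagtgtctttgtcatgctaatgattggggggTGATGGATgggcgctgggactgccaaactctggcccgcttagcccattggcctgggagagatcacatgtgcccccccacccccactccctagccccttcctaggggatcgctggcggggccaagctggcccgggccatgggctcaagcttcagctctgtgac
Hoxa2: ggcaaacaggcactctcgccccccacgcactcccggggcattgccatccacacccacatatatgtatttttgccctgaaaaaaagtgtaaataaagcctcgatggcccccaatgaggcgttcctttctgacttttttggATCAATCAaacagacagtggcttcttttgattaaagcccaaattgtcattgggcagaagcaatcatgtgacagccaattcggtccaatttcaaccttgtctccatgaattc
Hoxa5: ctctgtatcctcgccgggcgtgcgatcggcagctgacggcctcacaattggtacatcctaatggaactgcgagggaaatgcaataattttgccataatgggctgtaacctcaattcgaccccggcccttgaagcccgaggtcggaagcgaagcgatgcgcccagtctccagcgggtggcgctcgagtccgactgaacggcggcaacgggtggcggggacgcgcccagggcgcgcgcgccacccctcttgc

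The match begins at -162 from the start in Hoxb1 and at -111 in Hoxa2, and the windows of Hoxa3, Hoxa5 and Hoxa7 hold none. The windows of Hoxa3 and Hoxa7 lie within the gene spans given above. The bases after those starts were not found in GENCODE M21 transcripts of these genes, so the windows may miss their promoters. RefSeq windows were found for 22 of the 39 members, 24 windows in all. TGATNNAT was in 4 of these 24 (Hoxa2, Hoxb1, Hoxb8 and 1 of 2 windows of Hoxd11), against 7.68% of 32851 windows of all genes. The CDX site TTTATG was in 5 of 24 (10.8% of all windows) and the retinoid receptor half-site AGGTCA in 6 of 24 (14% of all windows), both searched on either strand. Hox windows had a median of 12.5 CpG dinucleotides against 6 over all windows. These are matches of letters and show no binding.

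In the libraries labelled Stag1-/- siGLO other members were called against wild-type siGLO. Hoxa10 and Hoxd1 fell and no member rose, so 2 of the 16 members tested were called in edgeR. Of all genes tested 20% were called and 9.93% fell. The share of members called was thus no higher than that of all genes. Hoxa10 (chr6:52231197-52240854), which patterns the lumbar vertebrae and the uterus, stood at 15.9, 5.07 and 8.69 in wild-type siGLO and 0.982, 0 and 1.80 in Stag1-/- siGLO. The groups did not overlap, and 3 counts against 31 gave a ratio of 0.0948 with an exact counting interval of 0.0186 to 0.304 (edgeR adjusted p = 0.00419). Hoxd1 (chr2:74762980-74765142), which acts in pain-sensing neurons, stood at 6.53, 10.1 and 16.4 against 1.96, 0.971 and 1.80. It fell by 2.70 on the log2 scale (SE 0.59, edgeR adjusted p = 0.00566). Both calls were kept in each of the 6 fits that left out 1 library, with the log2 fold change of Hoxa10 at -3.23 with all libraries and -4.04 without replicate 3 of Stag1-/- siGLO.

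Of the posterior Hoxa genes, Hoxa11 was also low. The 4 genes from Hoxa9 to Hoxa13, which were not tested together, summed to 25.2, 16.2 and 29.9 normalized counts in wild-type siGLO and 1.96, 2.91 and 3.61 in Stag1-/- siGLO. Most of these counts were from Hoxa10 and Hoxa11, as Hoxa13 had 0, 1 and 2 counts against 0, 1 and 1 and Hoxa9 0, 3 and 5 against 1, 0 and 0. Hoxa11, a gene of the forelimb and kidney with too few counts for the main test, had 10, 7 and 15 counts against 0, 2 and 1, a ratio of 0.0919 with an exact counting interval of 0.0180 to 0.294. It was called with no filter, where 6.21% of all genes fell. Hoxa11 had 0, 7 and 4 counts in Stag2-/- siGLO, where it overlapped wild type and was not called, and 3, 0 and 0 in Stag2-/- siStag1, where it was called lower with no filter. Its antisense transcript, listed as Hoxa11as, had 6, 12 and 7 counts in wild-type siGLO and 0 in each Stag1-/- library. It had 1 count in each Stag2-/- siGLO library and 0, 1 and 2 in Stag2-/- siStag1. It shares exon bases with Hoxa11, and how reads over those bases were counted is not known, as the strand setting is not given. Outside Hoxa, Hoxd13 stood at 14.7, 20.4 and 18.9 in Stag1-/- siGLO, below all wild-type libraries, with a log2 fold change of -0.78 (SE 0.36, edgeR adjusted p = 0.172). Hoxb9 was also below all wild-type libraries, at 7.86, 2.91 and 12.6. Its log2 fold change was -1.03 (SE 0.54, edgeR adjusted p = 0.238).

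The 250 bases before a RefSeq start of each gene that fell in the Stag1-/- libraries are shown for comparison with the windows above. Neither window holds TGATNNAT. For Hoxa10 the window shown lies before a start inside the gene span given above. The window before its outermost start (chr6:52240855-52241104) is not shown and holds no match either. The windows are chr6:52234940-52235189 on the - strand for Hoxa10 and chr2:74762730-74762979 on the + strand for Hoxd1.
Hoxa10: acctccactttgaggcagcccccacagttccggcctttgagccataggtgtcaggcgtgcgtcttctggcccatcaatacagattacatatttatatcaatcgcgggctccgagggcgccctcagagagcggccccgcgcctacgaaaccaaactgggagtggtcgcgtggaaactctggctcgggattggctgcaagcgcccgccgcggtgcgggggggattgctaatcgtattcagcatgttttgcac
Hoxd1: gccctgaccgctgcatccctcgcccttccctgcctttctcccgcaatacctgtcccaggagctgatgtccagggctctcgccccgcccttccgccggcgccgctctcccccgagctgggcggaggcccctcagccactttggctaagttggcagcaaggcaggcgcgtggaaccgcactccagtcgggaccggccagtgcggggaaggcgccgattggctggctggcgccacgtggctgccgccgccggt

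Both knockouts were compared directly, since both were also set against the same wild-type libraries. Of the 16 members tested, 10 were lower in Stag1-/- siGLO than in Stag2-/- siGLO and 0 were higher, where 25.7% of all genes tested were called and 12.9% were lower. Of these 10, 7 (Hoxa2, Hoxa3, Hoxa5, Hoxa7, Hoxb1, Hoxb2 and Hoxb3) had passed the filter on low counts only through the Stag2-/- libraries, which favoured this direction. With no filter 12 were lower and 0 higher, adding Hoxb6 and Hoxb8, where 8.04% of all genes were lower. They included Hoxa2, Hoxa3, Hoxa5, Hoxa7, Hoxa10, Hoxb1, Hoxb2, Hoxb3 and Hoxd1. Hoxb2 differed by -4.82 (SE 0.94, edgeR adjusted p = 0.00223) and Hoxa10 by -3.66 (SE 0.65, edgeR adjusted p = 0.00114) on the log2 scale. Hoxb2 differed by -6.35 without replicate 1 of Stag1-/- siGLO, and Hoxa10 by -4.46 without replicate 3 of Stag1-/- siGLO. With the replicate number as a block 12 members were lower, adding Hoxb4 (-1.07, edgeR adjusted p = 0.0924) and Hoxd13 (-0.83, edgeR adjusted p = 0.0924), where 37.3% of all genes tested were called. The calls on Hoxa2, Hoxa7 and Hoxd1 were each lost in at least 1 of the 6 fits without a library, and the edgeR adjusted p values of those fits follow. Hoxa2 stood at 0.119 and 0.107 without replicate 2 of Stag1-/- siGLO or replicate 3 of Stag2-/- siGLO. Hoxa7 stood at 0.110 and 0.121 without replicate 1 of Stag1-/- siGLO or replicate 3 of Stag2-/- siGLO, and Hoxd1 at 0.104 without replicate 1 of Stag2-/- siGLO.

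Depletion of STAG1 in wild-type cells for 48 h gave no Hox call. None of the 16 tested members passed in wild-type siStag1 against wild-type siGLO in edgeR, where 0.248% of all genes tested did, none had an unadjusted p under 0.05 (6.36% of all genes tested did) and DESeq2 called 0. Hoxa10, which fell in the libraries labelled Stag1-/-, stood at 10.5, 8.26 and 15.4 in wild-type siStag1, within the wild-type siGLO range, and the interval of its log2 fold change was -0.72 to 1.11. Hoxd1 stood at 9.30, 18.4 and 13.5, with an interval of -0.53 to 1.19. The intervals of Hoxa2 (-1.88 to 5.56) and Hoxb1 (-2.02 to 4.68) were too wide to show whether they differed.

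**Figure D3:**
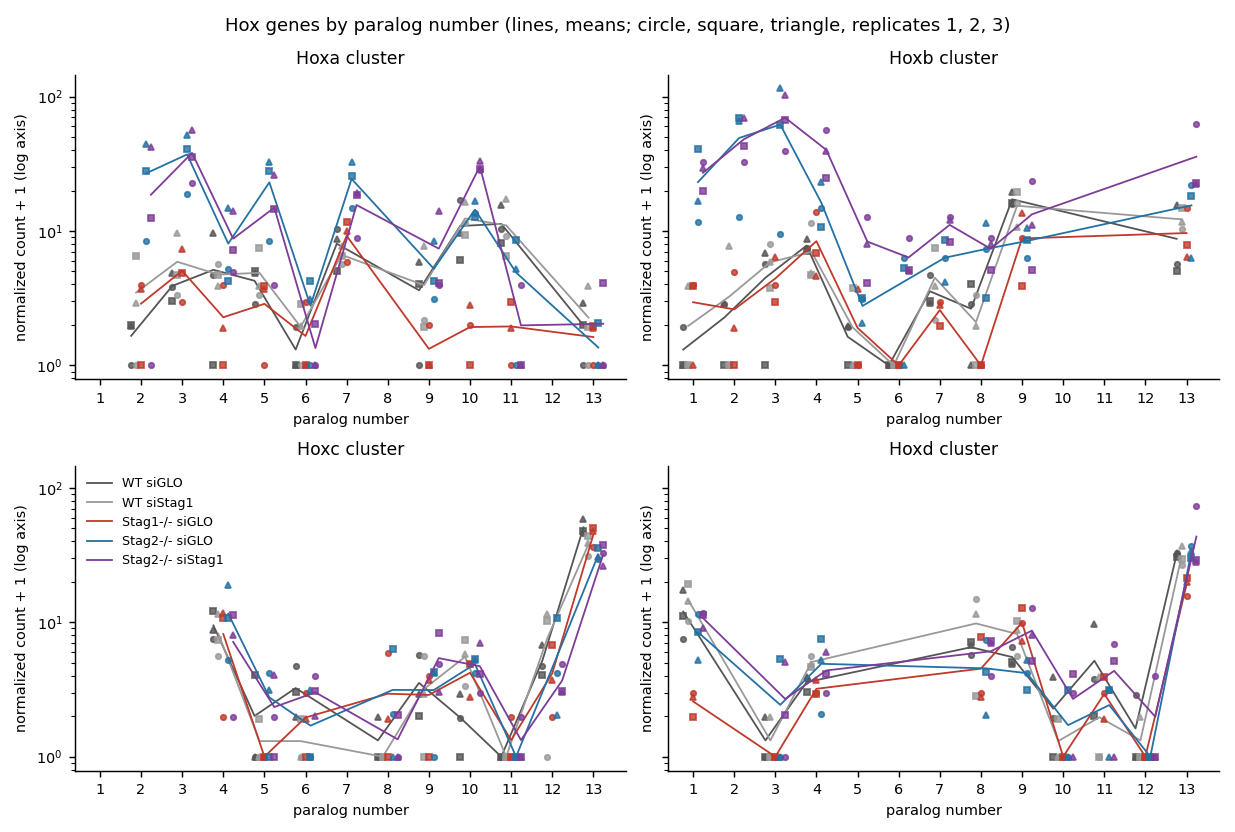
Normalized counts plus 1 (log y axis) of Hox genes against paralog number (x axis) in each cluster, with lines for the means of the 5 conditions and symbols for replicates 1 to 3. In Hoxa and Hoxb the means of both Stag2-/- conditions lie above the others at the anterior genes shown, whereas in Hoxc and Hoxd the lines of the 5 conditions cross.

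When STAG1 was depleted in Stag2-/- cells, more members differed from wild-type siGLO. In Stag2-/- siStag1, 10 of the 16 members tested rose (among them Hoxa2, Hoxa3, Hoxa5, Hoxa10, Hoxb1, Hoxb2, Hoxb3, Hoxb4 and Hoxb13) and Hoxc13 fell in edgeR, where 43.9% of all genes tested were called, 22.6% upward and 21.3% downward. Hoxb4 stood at 55.1, 23.9 and 38.3 normalized counts against 6.53, 6.09 and 7.73 in wild-type siGLO. It rose by a log2 fold change of 2.51 (SE 0.50, edgeR adjusted p = 0.00101). Hoxa10 stood at 27.5, 28.0 and 32.3, the tightest of the members that rose by SD relative to mean, with a log2 fold change of 1.55 (SE 0.42, edgeR adjusted p = 0.00892). Hoxb13 (chr11:96194316-96197447), which acts in the tail and prostate, stood at 61.0, 21.8 and 21.2 against 4.67, 4.06 and 14.5. Its log2 fold change was 2.15 (SE 0.59, edgeR adjusted p = 0.00937), and was 2.95 without replicate 3 of wild-type siGLO and 1.46 without replicate 1 of Stag2-/- siStag1. With replicate 1 of every condition left out it was no longer called (adjusted p = 0.13).

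The anterior genes of Hoxb and Hoxa3 were again above wild type. Hoxb1 stood at 31.5, 18.7 and 28.3 in Stag2-/- siStag1, Hoxb2 at 31.5, 41.5 and 68.6, and Hoxb3 at 38.4, 65.4 and 102. Hoxa3 stood at 21.6, 34.3 and 55.5, and all 4 were above every wild-type library. Hoxa2 stood at 0, 11.4 and 41.4 and Hoxa5 at 2.95, 13.5 and 25.2, both overlapping wild type in replicate 1. Without replicate 3 of Stag2-/- siStag1 the calls on Hoxa2, Hoxa5 and Hoxc13 were lost, with edgeR adjusted p of 0.17, 0.282 and 0.148. The call on Hoxa5 was also lost without replicate 1 of wild-type siGLO (edgeR adjusted p = 0.145), and that on Hoxc13 without replicate 3 of wild-type siGLO (edgeR adjusted p = 0.145). Hoxc13 stood at 31.5, 36.3 and 25.2, a change of -0.68 (SE 0.25, edgeR adjusted p = 0.0421). With no filter 13 members rose and 2 fell, adding Hoxb5, Hoxb6 and Hoxb7 above and Hoxa11 below, where 16.3% of all genes rose and 16.1% fell.

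The step from Stag2-/- siGLO to Stag2-/- siStag1 was tested by itself, and the outcome for Hoxb4 and Hoxa10 rested on whether same-numbered replicates were taken as pairs. Without pairing no member passed in edgeR, where 6.37% of all genes tested did, 3 had an unadjusted p under 0.05 (16.7% of all genes tested did) and DESeq2 called 0. Those 3 were Hoxb4, with a log2 difference of 1.36 (interval 0.45 to 2.27, edgeR adjusted p = 0.12), Hoxa10, with 1.12 (interval 0.30 to 1.94, adjusted p = 0.161), and Hoxb13, with 1.25 (interval 0.15 to 2.35, adjusted p = 0.257). With the replicate number as a block, Hoxb4 (log2 difference 1.32, edgeR adjusted p = 0.0393) and Hoxa10 (1.13, edgeR adjusted p = 0.0739) passed, where 14.1% of all genes tested did. All 3 were higher in every siStag1 library than in any siGLO library of these cells, as were 10.2% of all genes tested. For Hoxa3 the difference was 0.04 (interval -0.84 to 0.92) and for Hoxc13 0.01 (interval -0.51 to 0.53). The effect of siStag1 was not shown to differ between genotypes for any member. The interaction test in edgeR passed 0 (0.159% of all genes tested), 0 had an unadjusted p under 0.05 (5.8% of all genes tested did) and DESeq2 called 0. For Hoxb4 the interaction was 1.58 (interval 0.06 to 3.11, edgeR unadjusted p = 0.0541, adjusted p = 0.876). Stag1 itself fell with siStag1 by 1.53 on the log2 scale in Stag2-/- cells (SE 0.14) and by 2.28 in wild-type cells (SE 0.14). The depletions compared may therefore not have been equal, though the interaction on Stag1 was not called (edgeR adjusted p = 0.254).

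Genes beside the clusters gave a comparison at the same loci. Of the 26 nearest flanking genes 24 were tested, and in Stag2-/- siGLO 1 rose and 6 fell, a share close to the 28.3% of all genes tested that were called, with a median log2 fold change of 0.07 against 0.01 over all genes tested. Ttll6, a tubulin-modifying enzyme beside Hoxb, fell by 1.42 on the log2 scale (SE 0.30, edgeR adjusted p = 0.0033), and Calcoco2, an autophagy receptor gene, fell by 0.66 (SE 0.22, edgeR adjusted p = 0.0468), on the same chromosome where Hoxb1 to Hoxb3 rose. Both genes also fell in Stag1-/- siGLO, with log2 fold changes of -1.32 (SE 0.29, edgeR adjusted p = 0.00594) and -1.15 (SE 0.23, edgeR adjusted p = 0.00263). On the log2 scale Calcoco2 also fell by 1.47 with siStag1 in wild-type cells (SE 0.23, edgeR adjusted p = 0.0306) and by 1.62 in Stag2-/- cells (SE 0.24, edgeR adjusted p = 0.00106). Within 2 Mb of Hoxa and Hoxb, the medians in Stag2-/- siGLO were 0.13 over 16 genes (1 rose and 2 fell) and 0.00 over 84 genes (9 rose and 10 fell), where 13.9% of all genes tested rose and 14.4% fell. Around Hoxc the median was -0.14 over 43 genes, of which 11 fell and 3 rose, and around Hoxd -0.01 over 24 genes, of which 6 fell and 1 rose. In Stag1-/- siGLO, 7 of the 24 tested genes within 2 Mb of Hoxd fell and 0 rose, with a median of -0.17, where 9.93% of all genes tested fell.

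**Figure D4:**
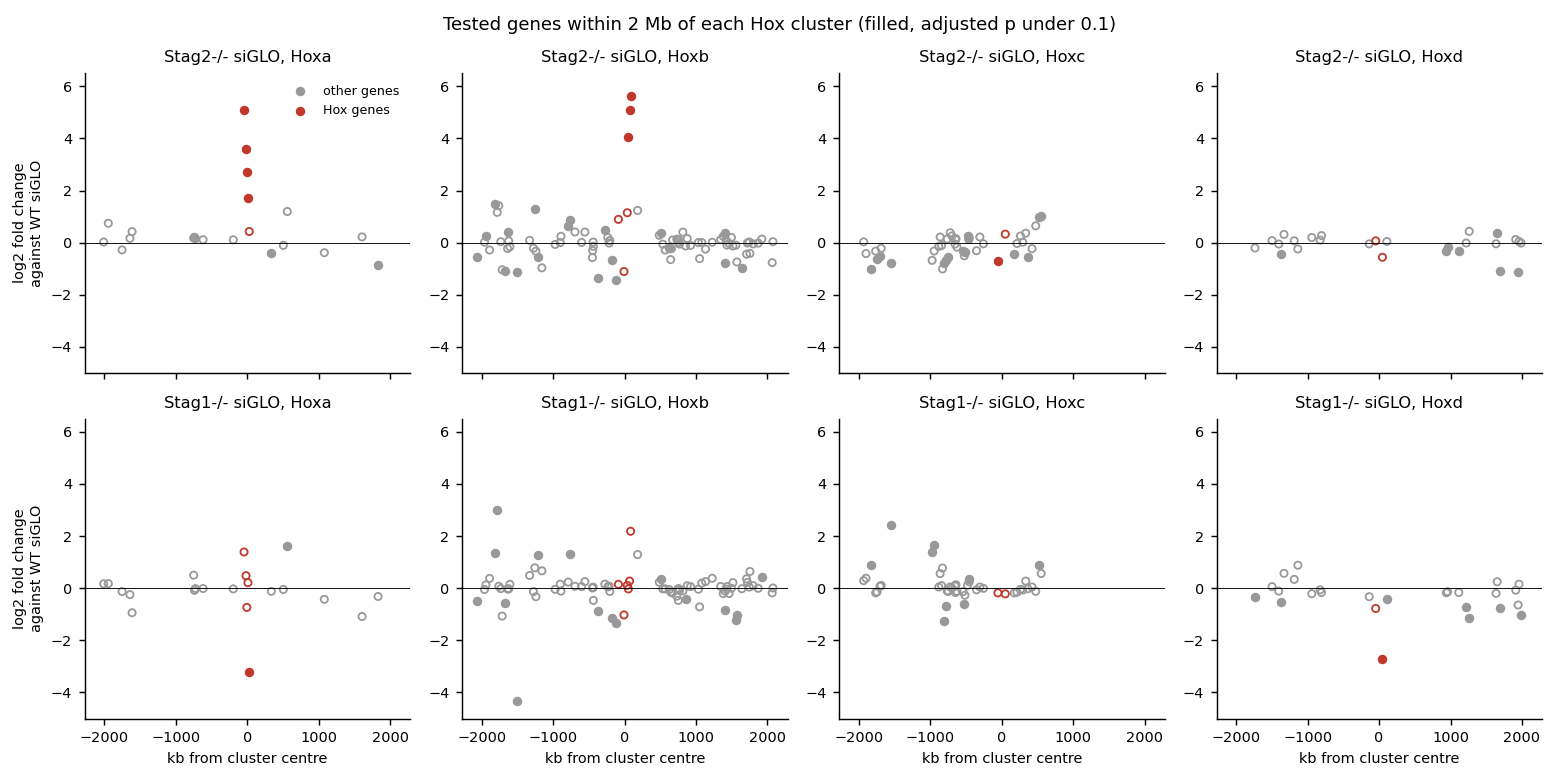
Log2 fold change against wild-type siGLO (y axis) of tested genes by distance in kb from the centre of each Hox cluster (x axis), with Hox genes in red, other genes in grey and filled symbols for an adjusted p under 0.1. In Stag2-/- siGLO the raised Hoxa and Hoxb genes reach 5.63 (Hoxb1), above all other genes shown within 2 Mb.

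The HOX cofactors had enough counts for all 9 to be tested. Of these PBX, MEIS and PKNOX genes, 4 rose (among them Pbx3, Meis2 and Meis3) and Pbx4 fell in Stag2-/- siGLO, where 13.9% of all genes tested rose and 14.4% fell, with a median log2 fold change over the 9 of 0.52 against 0.01 over all genes tested. Meis2 stood at 45.7, 28.4 and 20.3 normalized counts in wild-type siGLO and 67.6, 344 and 275 in Stag2-/- siGLO, a log2 fold change of 2.85 (SE 0.47, edgeR adjusted p = 0.000597). Meis2 was lowest in replicate 1 of the knockout, as the anterior Hox genes that rose were. Pknox1 was the only cofactor called in Stag1-/- siGLO, at 0.25 (SE 0.09, edgeR adjusted p = 0.0851), where 20% of all genes tested were called, and in Stag2-/- siStag1 5 rose, adding Pbx2, and Pbx4 fell, where 43.9% of all genes tested were called. Pbx2 and Pknox1 had the highest mean counts of the list, and in Stag2-/- siGLO their log2 fold changes were 0.23 (SE 0.10, edgeR adjusted p = 0.127) and -0.03 (SE 0.09, edgeR adjusted p = 0.833).

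Genes that act upstream of the clusters in the embryo, for or against their activation, were called in both directions. Of 13 such genes 3 rose (Wnt8a, Fgf8 and Wnt3) and Wnt3a fell in Stag2-/- siGLO. That share was close to the 28.3% of all genes tested that were called. In Stag2-/- siStag1 6 rose and 2 fell, where 43.9% of all genes tested were called, and between the knockouts 1 was higher and 4 were lower in Stag1-/- siGLO, where 25.7% were called. Fgf8, a growth factor of the primitive streak, stood at 13.1, 16.2 and 9.66 in wild-type siGLO and 38.0, 524 and 338 in Stag2-/- siGLO, a log2 fold change of 4.52 (SE 0.89, edgeR adjusted p = 0.00235). Wnt8a stood at 5.60, 6.09 and 3.86 against 42.2, 360 and 33.7, high mainly in replicate 2, with a log2 fold change of 4.78 (SE 0.87, edgeR adjusted p = 0.00123). Wnt3 stood at 13.1, 22.3 and 17.4 against 38.0, 180 and 47.4. Rarg and Rara, retinoic acid receptor genes, had the highest mean counts of the list, with log2 fold changes of 0.38 (SE 0.28, edgeR adjusted p = 0.359) and 0.36 (SE 0.18, edgeR adjusted p = 0.171). Cdx1, a caudal factor that activates central Hox genes, stood at 75.0, 219 and 54.8 in Stag2-/- siGLO, and fell to 25.6, 6.23 and 8.07 in Stag2-/- siStag1 from 57.8, 58.8 and 63.7 in wild-type siGLO (log2 fold change -2.16, SE 0.53, edgeR adjusted p = 0.00455). Rarb, of the same receptor family, rose in Stag2-/- siStag1 by 3.07 (SE 0.64, edgeR adjusted p = 0.00145), and Cyp26a1, which degrades retinoic acid, fell by 0.94 on the log2 scale (SE 0.33, edgeR adjusted p = 0.0355). In Stag1-/- siGLO, Cyp26a1 fell by 0.93 on the log2 scale (SE 0.33, edgeR adjusted p = 0.0728), whereas Wnt3a rose by 1.45 (SE 0.45, edgeR adjusted p = 0.043) and Cdx2, another caudal factor, by 1.71 (SE 0.65, edgeR adjusted p = 0.0937).

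Markers of other cell types also differed from wild-type siGLO. Of all genes tested, 20% were called in Stag1-/- siGLO, 28.3% in Stag2-/- siGLO and 43.9% in Stag2-/- siStag1. Neural progenitor markers (8 genes) summed to 3660 to 4410 normalized counts in wild-type siGLO, 5280 to 7540 in Stag2-/- siGLO and 6070 to 9070 in Stag2-/- siStag1, with 4 of 7 tested higher and 1 lower in Stag2-/- siGLO. Pax6, a neural transcription factor, stood at 240, 312 and 454 in Stag2-/- siGLO against 74.6, 37.5 and 40.6. Primitive streak markers (12 genes) summed to 1270 to 1360 in wild-type siGLO and 1430 to 2630 in Stag2-/- siGLO, with 3 of 9 tested higher and 2 lower. In Stag2-/- siStag1 they summed to 1320 to 1900, overlapping wild type. Of the markers called in Stag2-/- siGLO, Fgf8, Wnt3, Wnt8a and Wnt3a are also on the list of upstream genes above, so these calls are the same ones. Of the 10 embryonic stem cell markers, 5 were lower in Stag2-/- siGLO and 8 in Stag2-/- siStag1, and their sums were 119000 to 123000 in wild-type siGLO, 91200 to 107000 in Stag2-/- siGLO and 65600 to 84200 in Stag2-/- siStag1. In Stag1-/- siGLO 2 were lower (Pou5f1 and Tfcp2l1) and the sums were 98100 to 112000, and in wild-type siStag1 1 was lower, where 0.248% of all genes tested were called, and the sums were 109000 to 116000, also below wild-type siGLO. Fibroblast markers (12 genes, 7 tested), which would mark feeder cells, summed to 771 to 993 in Stag2-/- siGLO against 1050 to 1320 in wild-type siGLO, and Lum and Dcn were at 0 in all 3 wild-type siGLO libraries. The lower sum came from Pdgfra, which is also on the primitive endoderm list. Without it the other 11 summed to 509 to 752 in wild-type siGLO, 675 to 848 in Stag2-/- siGLO and 836 to 933 in Stag2-/- siStag1. Col3a1 and Fbn1 rose in both Stag2-/- conditions against wild-type siGLO and Twist1 in Stag2-/- siStag1, where Dcn had 10, 7 and 7 counts. Col3a1 was high mainly in replicate 1 (96.1, 21.5 and 8.43 normalized counts in Stag2-/- siGLO against 4.67, 10.1 and 14.5). The other tested members of the list were not called higher in either condition, and the median log2 fold change of the 7 tested was 0.25 in Stag2-/- siGLO and -0.06 in Stag2-/- siStag1. Primitive endoderm markers (8 genes) were all lower in Stag1-/- siGLO, Stag2-/- siGLO and Stag2-/- siStag1, with sums of 18700 to 19500 in wild-type siGLO and 3930 to 4940 in Stag1-/- siGLO. The part of these cell types in the Hox results was not tested.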

How the data were processed

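Polyadenylated RNA of 15 libraries was analysed. Reads were aligned by the authors with STAR on mm10, and what they deposited are raw counts for each gene, with no normalization. The counting tool, annotation and strand setting are not given in the sources used here. The deposited counts also held 4 summary lines, left out of all tests, which came to 4.01% to 4.79% unmapped, 3.80% to 4.50% multimapping, 9.78% to 13.0% without a feature and 1.92% to 2.08% ambiguous reads. Columns of no sample numbered 0.

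All genes were fitted with edgeR 4.0.16 in R 4.3.3 (filterByExpr with minimum count 10 and minimum total 15, TMM, glmQLFit over all 15 libraries with 1 coefficient per condition, two-sided glmQLFTest). The Benjamini-Hochberg adjustment ran over the 14508 genes tested, with a threshold of 0.1, and 19494 genes had at least 1 count. Normalized counts are on a common depth, after TMM scaling of library sizes. The SE is the size of the log2 fold change over the square root of F, and intervals of log2 fold changes are the value plus or minus 2 SE. Counting intervals (95%) are exact binomial ones and, like floors, cover counting error only. Members, lists and tests were chosen with earlier results of these data known. Members were described singly where called in at least 1 comparison or where highest of their cluster, and list genes by size of change and level. Where other counts are named (Hoxa11, Hoxa11as, Hoxb6, Hoxb5, Hoxb7, Hoxb8, Hoxb9, Hoxa9, Hoxa13, the neighbours and marker genes), they were chosen after their values were seen. Positions and exon overlaps came from GENCODE M21 and promoters from RefSeq. The alternatives were DESeq2 1.42.0, DESeq2 size factors or library size in edgeR, other filters, an adjusted p under 0.05, only the libraries compared, a replicate block and each library left out. Replicate numbers were taken as pairs where the deviations of all 3 same-numbered pairs of libraries from their condition means correlated above 0.1. This held for siStag1 against siGLO in wild-type cells (r 0.207 to 0.515) and in Stag2-/- cells (0.282 to 0.715), for Stag1-/- against wild-type siGLO (0.176 to 0.303) and between the knockouts (0.246 to 0.284). Some single genes are not reported here. The tests were checked on simulated data, and no libraries of a condition were copies (chi-square over degrees of freedom 4.52 to 25.2). Python 3.11.15 with matplotlib 3.10.9 drew the figures.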

Additional observations from a re-analysis of the deposited data

How the results depend on the processing

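Hox counts per library are few, so a member outside the tested 16 may differ without being detectable at this depth. The number of members called was the same in edgeR with DESeq2 size factors or library size alone as with TMM in all 7 comparisons. Requiring at least 10 counts in every library left 3 members tested, of which 0 were called in Stag1-/- siGLO, 1 in Stag2-/- siGLO and 2 in Stag2-/- siStag1 against wild-type siGLO, and 1 between the knockouts. Using only the libraries compared, 0 members were called in Stag1-/- siGLO (5 tested), 5 in Stag2-/- siGLO (10 tested) and 6 between the knockouts (10 tested). Hoxa10 and Hoxd1 had too few counts to be tested in the first of these fits, as had Hoxa2, Hoxa5 and Hoxb3 in the second. Leaving out 1 library gave 2 to 3 calls in Stag1-/- siGLO, 7 to 8 in Stag2-/- siGLO, 8 to 13 in Stag2-/- siStag1, 8 to 11 between the knockouts and 0 in the other comparisons. DESeq2 called 3, 8, 15 and 11 members in those first 4 comparisons. Without replicate 1 of every condition, an alternative chosen after seeing the data, 1 member was called lower in Stag2-/- siStag1 than in Stag2-/- siGLO, where the reported fit called 0. The 31 calls on members gave 427 values under the alternatives, of which 403 kept the call, 24 lost it and 0 reversed. Of 1138 values of tested members that were not called, 14 passed the threshold under an alternative, 7 of them with the replicate block.

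For Stag2-/- siGLO and Stag2-/- siStag1 against wild-type siGLO the replicate numbers were not taken as pairs, as the lowest r of same-numbered libraries was 0.084 and 0.03. Over all conditions 26 of 30 such pairs had r above 0.1 and 14 of 15 libraries correlated best with one of their own number, a hint from the data only. A replicate block called 10 members (8 without it, with Hoxb4, at an adjusted p of 0.0716, among those added) and 12 (11 without it, adding Hoxa7) in these comparisons, 2 in Stag2-/- siStag1 against Stag2-/- siGLO and 12 between the knockouts, and changed no other call on a member.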
